A study of Mus musculus with 6 samples.

Results

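The genes described here are 8 genes of neutrophils, split into a mature class (S100a8, S100a9, Retnlg and Csf3r) and a granule precursor class (Ngp, Camp, Elane and Mpo). They were chosen by name, with earlier results of these data known. Every probe set whose platform annotation names 1 of these symbols and no other was taken. That rule found 7 of the 8 genes, with 1 probe set each, among 17097 genes named by 45037 mouse probe sets. No probe set was matched to Retnlg, which was not analysed here. Lungs came from male BALB/c mice, 10 weeks old by their labels, with 3 mice in each group. The hydrogen group had breathed a mixture of 2% H2 and 98% air for 3 weeks (n = 3 arrays), and the control group had been kept in normal air (n = 3 arrays). Each array held biotin-labelled RNA of lung tissue on an Affymetrix MG-430 PM array. The labels do not say whether the lungs were flushed of blood.

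Neutrophils are short-lived phagocytes that are made in the bone marrow and reach the lung through its capillaries, where many of them linger in healthy animals. While they mature they make their proteins in order. The primary granule proteins such as Elane and Mpo are transcribed in early precursors, Ngp and Camp are transcribed later as secondary and tertiary granules form, and S100a8, S100a9 and Csf3r transcripts remain high in the circulating cell. In bulk tissue, fewer cells of a type and less RNA per cell cannot be told apart.

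Among the 7 measured genes, 2 passed the test, both of them granule precursor genes and both higher in hydrogen lungs: Elane, by 1.32-fold, and Mpo, by 1.21-fold. The 3 mature genes had larger or similar differences, of 1.26-fold to 1.40-fold, and none passed. Their values spread more widely within a group. A call here is an adjusted p below 0.05 in limma, adjusted by the Benjamini-Hochberg method over all 45037 probe sets. By that rule 24.3% of all probe sets were higher in hydrogen lungs and 22.8% were lower, so 2 of 7 is close to the share called over the whole array. None of the 7 was lower. The groups did not overlap, with hydrogen higher, for 3 of the 7 genes (Csf3r, Elane and Mpo), where 30.9% of all probe sets showed that separation.

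S100a8 encodes calgranulin A, which pairs with the product of S100a9 to form calprotectin, an abundant complex of the neutrophil cytoplasm. Its probe set read 9.10, 9.44 and 8.86 log2 units in hydrogen lungs and 8.79, 8.95 and 8.19 in control lungs. The groups overlapped, since the lowest hydrogen array lay below the highest control array. The means were 9.13 ± 0.29 in hydrogen lungs and 8.64 ± 0.40 in control lungs (SD, n = 3 each), a log2 difference of 0.49 (SE 0.20, 95% interval 0.03 to 0.95). The limma adjusted p was 0.0767. The suffix of this probe set's name (s_at) marks a design whose probes can match more than 1 transcript.

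S100a9 encodes calgranulin B. Its values were 9.27, 9.65 and 9.03 log2 units in hydrogen lungs and 9.09, 9.08 and 8.54 in control lungs, so the groups overlapped here too. The order of the arrays was nearly that of S100a8, with hydrogen replicate 2 highest and control replicate 3 lowest. The mean was 9.32 ± 0.31 in hydrogen lungs and 8.90 ± 0.31 in control lungs (SD, n = 3 each), a difference of 0.41 (SE 0.18, limma adjusted p = 0.0935).

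Csf3r encodes the receptor for granulocyte colony-stimulating factor, the main hormone of neutrophil production. It read 6.59, 7.18 and 6.59 in hydrogen lungs and 6.58, 6.52 and 6.27 in control lungs on the log2 scale. The groups did not overlap, but only narrowly, with 6.59 as the lowest hydrogen value and 6.58 as the highest control value, and hydrogen replicate 2 stood well above the rest. The difference was 0.33 (SE 0.16, 95% interval -0.03 to 0.69, limma adjusted p = 0.117).

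**Figure D1:**
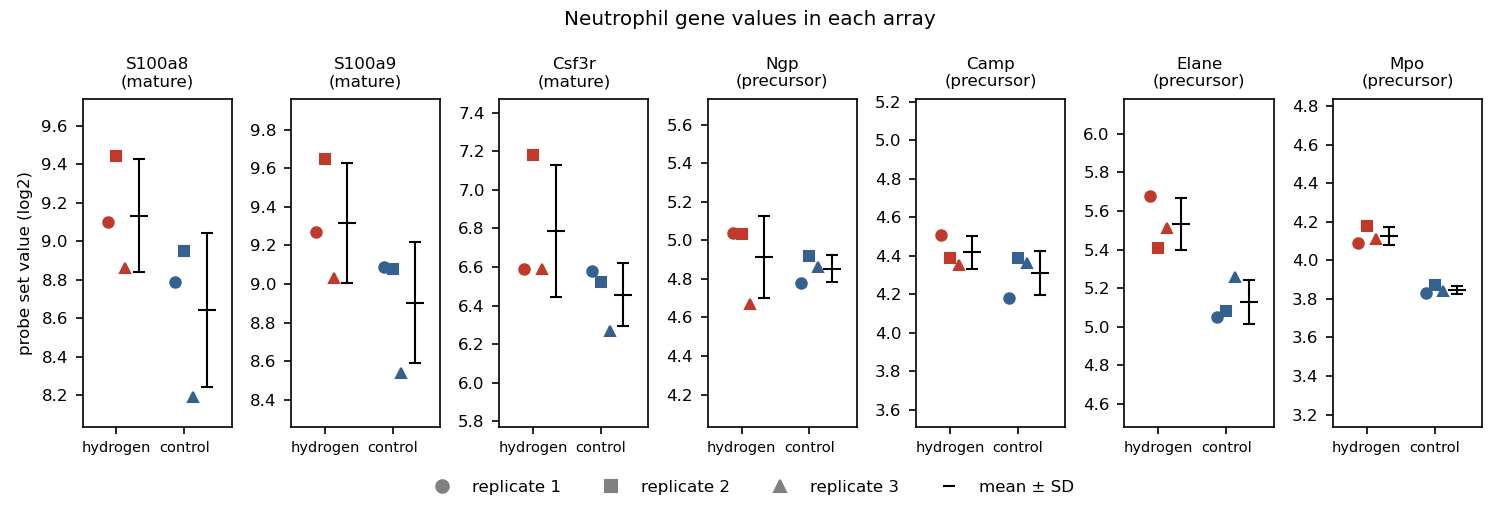
Deposited log2 values of the 7 measured neutrophil genes in each array, hydrogen left and control right in each panel, with the group mean ± SD beside the points; each panel has its own vertical range. Hydrogen and control arrays separate for Elane, Mpo and, narrowly, Csf3r, and overlap for the other 4 genes.

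Elane encodes neutrophil elastase, a serine protease of the primary granules. It read 5.68, 5.41 and 5.51 log2 units in hydrogen lungs and 5.05, 5.08 and 5.26 in control lungs. All 3 hydrogen arrays lay above all 3 control arrays. The mean was 5.53 ± 0.14 in hydrogen lungs and 5.13 ± 0.11 in control lungs (SD, n = 3 each), a difference of 0.40 (SE 0.09, 95% interval 0.21 to 0.60, limma adjusted p = 0.00611).

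Mpo encodes myeloperoxidase, an enzyme stored in the same granules that makes hypochlorous acid from hydrogen peroxide and chloride. It read 4.09, 4.18 and 4.11 in hydrogen lungs and 3.83, 3.87 and 3.84 in control lungs on the log2 scale. The groups were apart by more than either one's own spread. The mean was 4.13 ± 0.05 in hydrogen lungs and 3.85 ± 0.02 in control lungs (SD, n = 3 each), a difference of 0.28 (SE 0.05, 95% interval 0.16 to 0.40, limma adjusted p = 0.00376). The signal was low, below the 4.80 of the median probe set.

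Ngp encodes neutrophilic granule protein, a cystatin-like protein of the secondary granules. It read 5.04, 5.03 and 4.67 in hydrogen lungs and 4.78, 4.92 and 4.86 in control lungs on the log2 scale. Hydrogen replicate 3 was the lowest of the 6 arrays and the other hydrogen arrays were the highest, so the groups overlapped. The difference was 0.06 (SE 0.10, 95% interval -0.17 to 0.29, limma adjusted p = 0.650).

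Camp encodes the precursor of cathelicidin, an antimicrobial peptide. It read 4.51, 4.39 and 4.35 in hydrogen lungs and 4.18, 4.39 and 4.36 in control lungs on the log2 scale, again with overlap. The difference was 0.11 (SE 0.07, 95% interval -0.06 to 0.28, limma adjusted p = 0.267). With 3 arrays against 3, the exact two-sided permutation test cannot give a p below 0.1, and Csf3r, Elane and Mpo reached that 0.1. The other 4 genes gave exact permutation p-values of 0.2 for S100a8, 0.3 for S100a9, 0.7 for Ngp and 0.5 for Camp.

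Set side by side as classes, the mature genes had the larger median difference and the wider spread. The median log2 difference was 0.41 over the 3 mature genes (range 0.33 to 0.49) and 0.19 over the 4 granule precursor genes (range 0.06 to 0.40), against 0.0067 over all genes. The SD left within groups by the fit was 0.268 to 0.350 for the mature genes and 0.0365 to 0.157 for the precursor genes. The SD of S100a8 stood at percentile 99.6 of all probe sets, and that of S100a9 at percentile 99.4. Mpo lay at the other end, at percentile 7.2. Differences between the classes were not tested, since the members were chosen with earlier results of these data known.

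The mature genes moved together from array to array, within groups as well as between them. As the median over the 3 mature genes of the deviation from the control mean, the arrays read 0.37, 0.75 and 0.13 in hydrogen lungs and 0.15, 0.18 and -0.36 in control lungs. The medians overlapped, with hydrogen replicate 3 below control replicates 1 and 2. The same measure over the 4 precursor genes was 0.22, 0.23 and 0.15 in hydrogen lungs and -0.08, 0.05 and 0.03 in control lungs, and did not overlap. Probe sets about as bright as these genes were also higher in hydrogen lungs, with median log2 differences of 0.07 to 0.15. Over the precursor genes the median log2 difference of 0.19 fell to 0.10 with centred arrays, 0.074 by quantile scaling and 0.061 by loess. Whether their separation exceeds that of probe sets of like brightness was not tested.

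**Figure D2:**
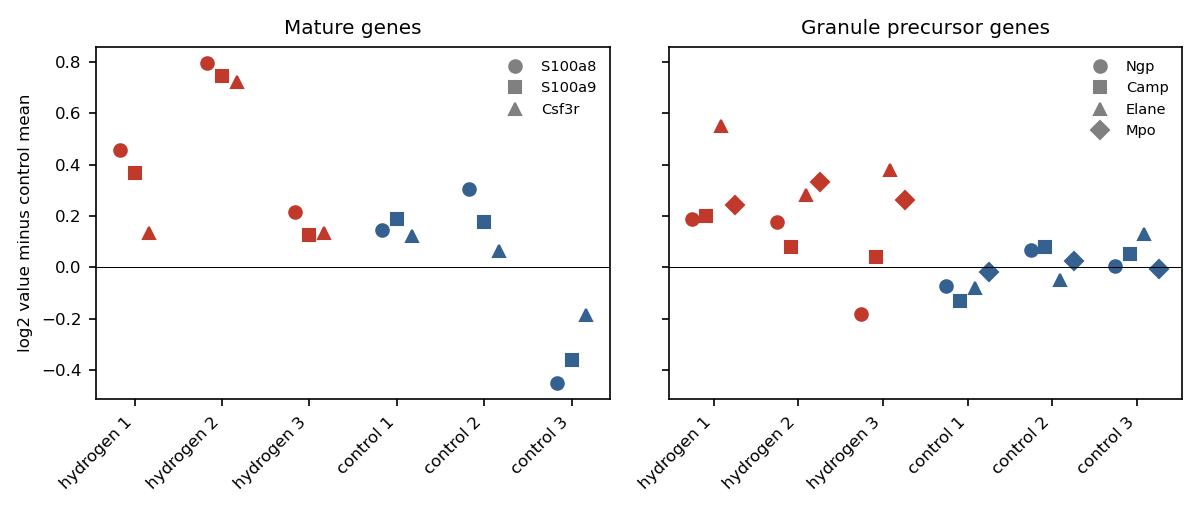
Deviation of each gene's log2 value from its control mean (vertical axis) in each array, hydrogen in red and control in blue, with mature genes at left and granule precursor genes at right. The 3 mature genes peak together in hydrogen replicate 2 and drop together in control replicate 3, whereas the precursor genes do not share that order.

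Hydrogen replicate 2 was the highest array and control replicate 3 the lowest for 3 of 3 mature genes and for 0 of 4 precursor genes. That order was noticed after the values were seen. It was held by 5 of 24 other genes of mature neutrophils (Cxcr2, Mmp8, Trem1, Clec4d and Lrg1), 0 of 18 other granule and precursor genes and 4.36% of all genes. It was also held by 5 of 13 lymphocyte markers (Cd79a, Cd79b, Ms4a1, Gzma and Nkg7) and 2 of 11 monocyte markers (Cx3cr1 and Plac8). The part of those cells in that order was not tested. Without hydrogen replicate 2 the differences of the mature genes were 0.34 for S100a8, 0.25 for S100a9 and 0.13 for Csf3r. Without control replicate 3 they were 0.26 for S100a8, 0.23 for S100a9 and 0.24 for Csf3r. In both cases no mature gene passed, with limma adjusted p from 0.201 to 0.319. Without hydrogen replicate 3, S100a8 (0.63, adjusted p = 0.0476) and S100a9 (0.56, adjusted p = 0.0423) passed. Without control replicate 2, S100a8 passed (0.64, adjusted p = 0.0482).

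The differences also have to be read against the brightness of each probe set, because differences over the whole array varied with brightness. Among probe sets as dim as Mpo, in the third lowest of 10 equal classes by mean signal, the median log2 difference was 0.14 and 38.9% were called higher in hydrogen lungs. Around Elane and Ngp, in the sixth class, the median was 0.07 and 35.4% were higher. Among probe sets as bright as S100a8 and S100a9, in the top class, the median was -0.13 and 5.28% were higher, and around Csf3r, in the eighth class, the median was -0.18 and 12.3% were higher. All 3 mature genes lay above the median of their class, as did Elane and Mpo, whereas Ngp and Camp lay at or below theirs.

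**Figure D3:**
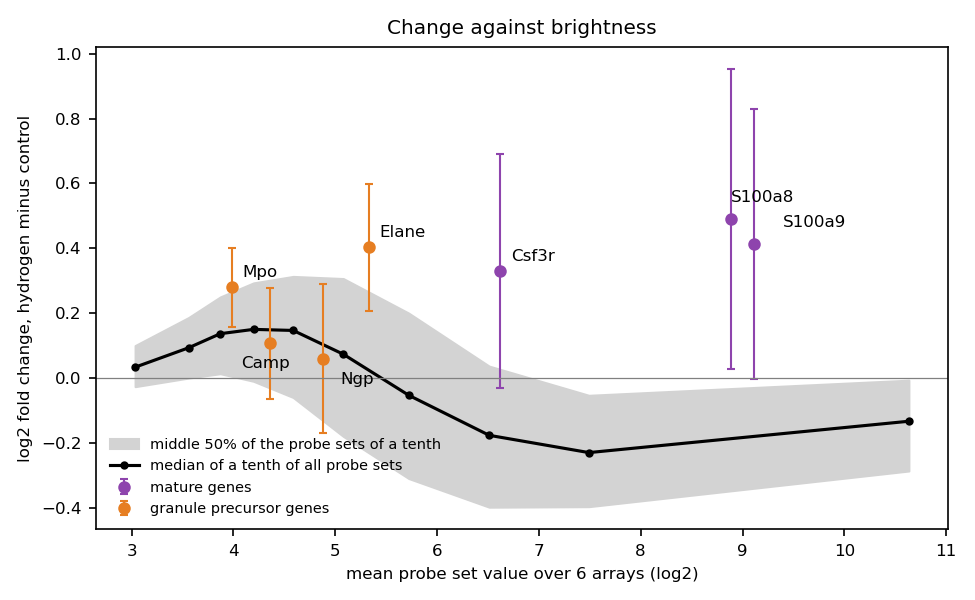
Log2 difference, hydrogen minus control, against mean signal: the line joins the medians of 10 equal classes of all probe sets, the band spans their quartiles, and labelled points with 95% intervals are the 7 neutrophil genes. The median is 0.15 in the fourth class and -0.13 in the top class, and S100a8, S100a9 and Csf3r lie above it.

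When the deposited values were quantile normalised again or scaled by cyclic loess, 5 of the 7 genes passed, with 18.7% and 17% of all probe sets called higher. The quantile values were 0.67 for S100a8 (limma adjusted p = 0.0358), 0.58 for S100a9 (adjusted p = 0.0401) and 0.51 for Csf3r (adjusted p = 0.0381). Those of the precursors were 0.40 for Elane (adjusted p = 0.00815) and 0.16 for Mpo (adjusted p = 0.0437). Mpo thus moved by more than 1.5 times with the scaling, while Ngp (-0.01) and Camp (-0.02) turned to just below 0. Elane passed under all 16 alternatives tried for it, with differences of 0.31 to 0.47, and Mpo under all 15, with 0.16 to 0.30. S100a8 passed under 5 of 15, S100a9 under 4 of 16 and Csf3r under 2 of 16.

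**Figure D4:**
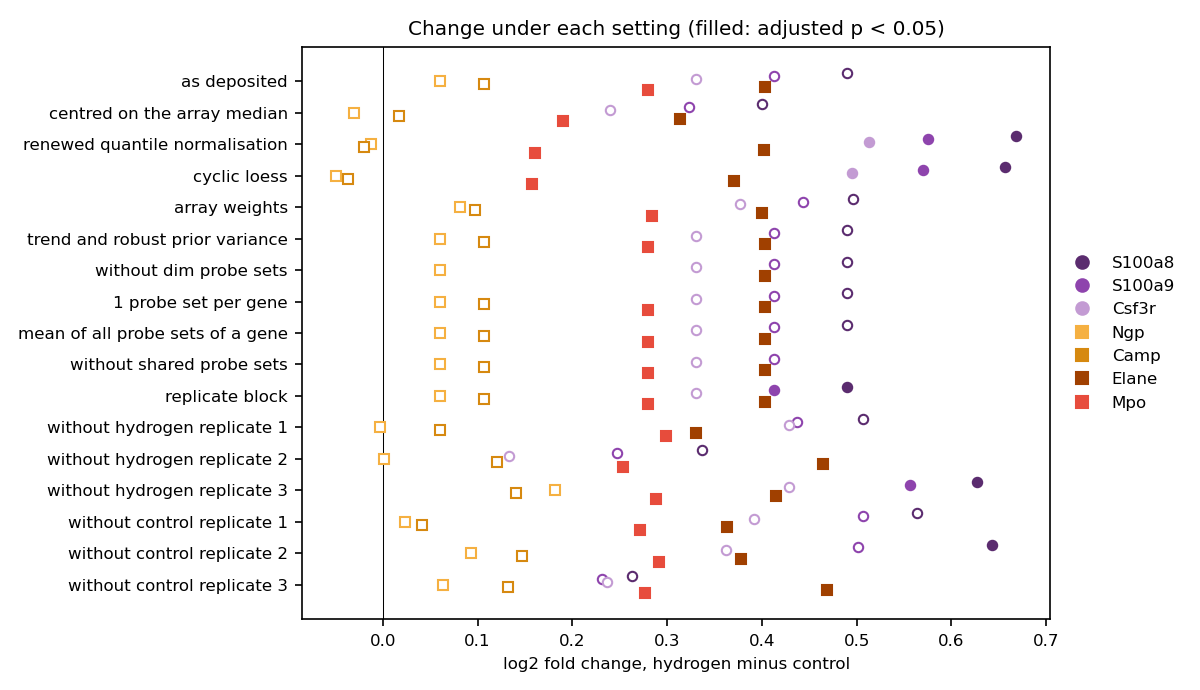
Log2 difference of each of the 7 genes, hydrogen minus control, under the deposited scale and each alternative treatment of the data, with filled symbols where the limma adjusted p is below 0.05. Elane and Mpo are filled wherever they were tested, the mature genes are filled under both renewed scalings, and S100a8 and S100a9 also under a few other settings.

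The promoters of the measured mature genes and of both called precursors are shown. The windows are the 250 bases before the start site that the RefSeq promoter table gives for each gene on build GRCm38.p6, written 5′ to 3′ on the gene's own strand. They span chr3:90668821-90669070 (plus strand) for S100a8, chr3:90695722-90695971 (minus strand) for S100a9 and chr4:126024409-126024658 (plus strand) for Csf3r. The annotated span of Csf3r begins further upstream, at position 126023441, so its window lies inside the gene and its motif position is counted from a start within the span. The window of Elane is chr10:79886062-79886311 and that of Mpo is chr11:87793534-87793783, both on the plus strand. Capitals mark matches, on either strand, to the core motifs of 3 factors of myeloid cells: TTGCNNAA for C/EBP proteins, GAGGAA for PU.1 and TGTGGT for RUNX proteins. No match overlapped another motif.
S100a8: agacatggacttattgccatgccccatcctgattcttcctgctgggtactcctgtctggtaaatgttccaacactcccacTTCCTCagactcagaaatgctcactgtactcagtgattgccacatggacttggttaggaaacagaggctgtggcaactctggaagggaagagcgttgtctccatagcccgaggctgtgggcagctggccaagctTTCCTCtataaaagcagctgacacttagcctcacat
S100a9: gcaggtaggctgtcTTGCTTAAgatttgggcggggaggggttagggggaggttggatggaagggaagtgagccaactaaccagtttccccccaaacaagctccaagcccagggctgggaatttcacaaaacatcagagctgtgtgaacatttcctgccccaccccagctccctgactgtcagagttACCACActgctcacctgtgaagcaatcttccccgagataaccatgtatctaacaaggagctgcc
Csf3r: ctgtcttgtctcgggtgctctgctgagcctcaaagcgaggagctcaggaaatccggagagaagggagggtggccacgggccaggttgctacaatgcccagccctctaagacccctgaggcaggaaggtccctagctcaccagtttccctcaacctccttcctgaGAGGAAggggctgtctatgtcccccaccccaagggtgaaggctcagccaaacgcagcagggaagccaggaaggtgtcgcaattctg
Elane: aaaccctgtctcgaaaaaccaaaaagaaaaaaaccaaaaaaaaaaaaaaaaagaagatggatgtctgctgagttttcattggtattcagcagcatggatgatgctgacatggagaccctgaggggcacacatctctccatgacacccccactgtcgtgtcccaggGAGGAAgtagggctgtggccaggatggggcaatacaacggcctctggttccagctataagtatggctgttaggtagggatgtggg
Mpo: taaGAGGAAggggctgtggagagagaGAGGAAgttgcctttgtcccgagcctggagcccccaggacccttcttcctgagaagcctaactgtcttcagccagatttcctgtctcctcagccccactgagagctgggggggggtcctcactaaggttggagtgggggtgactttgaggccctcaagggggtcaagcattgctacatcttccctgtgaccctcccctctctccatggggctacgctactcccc

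GAGGAA was present in 4 of the 7 measured genes (S100a8, Csf3r, Elane and Mpo), where 23.3% of 32851 windows of the same length hold it. S100a8 and Mpo had 2 matches each, and Csf3r and Elane had 1 each, at 86 to 81 and 85 to 80 bases before the start site of the table. TTGCNNAA was present in S100a9 and Ngp, 2 of the 7, against 9.56% of all windows. TGTGGT was present in S100a9 alone among the 7, against 14% of all windows. The window of Camp held none of these letters. The GAGGAA matches crossed the classes, with 2 mature and 2 precursor genes. These matches describe letters in a window and are not evidence of binding.

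The other genes of mature neutrophils gave calls in both directions. Of 24 measured genes, 6 were higher in hydrogen lungs (Mmp9, Trem1, Trem3, Lrg1, Il1b and Slpi), 1 was lower (Cd177) and 17 did not pass. Their median log2 difference was 0.09. Over all genes, each read from its brightest probe set, 25.5% were higher and 25.9% lower. Mxd1, among those that did not pass, read -0.23 by its brightest probe set (limma adjusted p = 0.0508). Its 2 dimmer probe sets were called higher, by 0.51 (adjusted p = 0.000847) and 0.21 (adjusted p = 0.0371). Mmp9, the gelatinase of tertiary granules, read 6.15, 6.39 and 5.88 log2 units in hydrogen lungs and 5.42, 5.60 and 5.68 in control lungs (difference 0.57, limma adjusted p = 0.0066). Trem1, an activating receptor of neutrophils and monocytes, read 5.49, 5.71 and 5.57 in hydrogen lungs and 5.16, 5.12 and 4.97 in control lungs (0.51, adjusted p = 0.0015). Il1b, the cytokine interleukin 1 beta, also of macrophages, differed by 0.37 (adjusted p = 0.00311). Cd177, a surface protein of neutrophils that binds Pecam1, went the other way. It read 4.48, 4.19 and 4.38 in hydrogen lungs and 4.97, 5.06 and 4.64 in control lungs, and fell by 0.54 (limma adjusted p = 0.00642). The call of Slpi, an inhibitor of neutrophil elastase, was lost without hydrogen replicate 2 (adjusted p = 0.0637), hydrogen replicate 3 (0.0640), control replicate 1 (0.0529) or control replicate 3 (0.0507), and when arrays were centred on their medians (0.0774). Cxcr2, the chemokine receptor by which neutrophils leave the marrow, differed by 0.24 and did not pass (adjusted p = 0.0739).

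The other granule and precursor genes also split. Of 18 measured, 6 were higher (Ltb4r1, Ms4a3, Cst7, Ctsg, Itgb2l and Ncf4), 2 were lower (Ltf and Serpinb1a) and 10 did not pass, with a median of 0.11. The shares over all genes were 25.5% higher and 25.9% lower. Ctsg, cathepsin G, a protease stored in the primary granules with Elane and Mpo, read 3.76, 3.81 and 3.69 log2 units in hydrogen lungs and 3.35, 3.48 and 3.53 in control lungs (0.30, limma adjusted p = 0.007). Prtn3, a further serine protease of those granules, differed by 0.16 and did not pass (adjusted p = 0.146). Ms4a3, a membrane protein of granulocyte and monocyte precursors, differed by 0.43 (adjusted p = 0.00181). In the brightness class of Ctsg, the second of 10, 27.2% of all probe sets were called higher, and in that of Ms4a3, the fifth, 42.1% were. Ltf encodes lactotransferrin, an iron-binding protein of the secondary granules that glandular epithelium also secretes. It read 7.03, 4.83 and 5.34 in hydrogen lungs and 8.50, 8.48 and 8.26 in control lungs, and fell by 2.68 (adjusted p = 0.00247), with hydrogen replicate 1 nearer to the control arrays than the other hydrogen arrays were. Of the other secondary granule genes, Lcn2 had a difference of -0.12 (adjusted p = 0.441), and Ngp and Camp are given above. Serpinb1a, an inhibitor of elastase, fell by 0.30 (adjusted p = 0.0155), a call that was lost without hydrogen replicate 1 (adjusted p = 0.0544), hydrogen replicate 2 (adjusted p = 0.0580) or control replicate 2 (adjusted p = 0.0531), and its difference was -0.08 after renewed quantile normalisation (adjusted p = 0.440). The call of Ncf4, a subunit of the oxidase complex, was lost without any of hydrogen replicates 1 and 2 and control replicates 2 and 3 (adjusted p = 0.0847 to 0.148). When arrays were centred on their medians, Ncf4 (adjusted p = 0.200) and Itgb2l, an integrin gene (0.13, adjusted p = 0.0754), did not pass.

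Genes for the signals that make and recruit neutrophils gave 8 higher, 4 lower and 15 not passing of 27 measured, with a median of 0.07. The shares over all genes were 25.5% higher and 25.9% lower. Csf3, the ligand of Csf3r, was close to level, at 4.26, 4.24 and 4.21 log2 units in hydrogen lungs and 4.29, 4.21 and 4.20 in control lungs (0.0033, limma adjusted p = 0.966). Il17a, a cytokine that raises granulopoiesis, differed by 0.47 (adjusted p = 0.0023), and Tnf by 0.46 (adjusted p = 0.000596). Alox5, the enzyme that starts leukotriene synthesis, differed by 0.31 (adjusted p = 0.00589), and Ltb4r1, the receptor for leukotriene B4, by 0.60 (adjusted p = 0.000414). Tlr4, the receptor for bacterial lipopolysaccharide, fell by 0.56 (adjusted p = 0.000424), and its dimmer probe set differed by -0.15 and did not pass (adjusted p = 0.0634). Of the chemokines that bind Cxcr2, Cxcl1 was higher by 0.22 (adjusted p = 0.0412), Cxcl2 differed by -0.10 (adjusted p = 0.183) and Cxcl5 was lower by 0.26 (adjusted p = 0.0433). The calls of Cxcl1 and Cxcl5 were each lost under 7 alternatives, among them the omission of single arrays, with adjusted p up to 0.372 for Cxcl1 and 0.135 for Cxcl5. The other higher genes were Il17ra, Selplg, Csf2 and Cxcl12, and the other lower ones Il1r1 and Pecam1. Of these, the calls of Csf2, Cxcl12 and Pecam1 were lost without single arrays of either group (adjusted p up to 0.130). After renewed quantile normalisation Il1r1 stood at -0.12 (adjusted p = 0.383) and Pecam1 at -0.06 (adjusted p = 0.584), and a further probe set of Cxcl12 went the opposite way, at -0.37. Csf2rb, Ptafr and C5ar1 did not pass by their brightest probe sets. A dimmer probe set of each was called higher, by 0.62, 0.37 and 0.22 in that order.

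**Figure D5:**
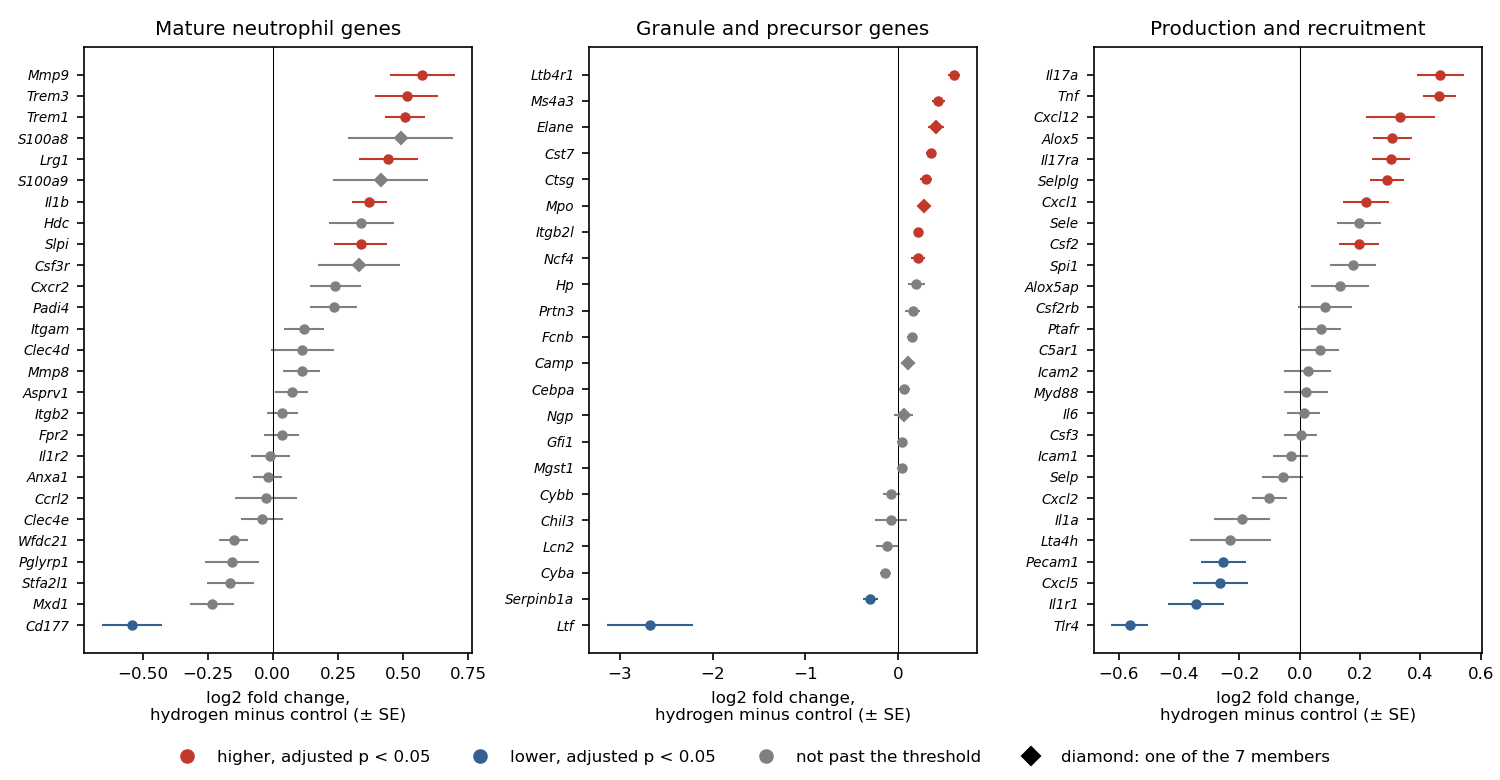
Log2 difference, hydrogen minus control, of each measured gene in the lists of other mature neutrophil genes, other granule and precursor genes and production and recruitment signals, with the neutrophil genes of the opening as diamonds, bars of 1 SE, and red (higher) or blue (lower) where the limma adjusted p is below 0.05; each panel has its own horizontal scale. Higher and lower calls occur in each panel, and Ltf, at -2.68, lies furthest from 0.

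Markers of other blood and lung cells moved in the same samples, and their part in the neutrophil results was not tested. The counts stand beside shares over all genes of 25.5% higher and 25.9% lower. From the sixth to the top brightness class, 5.28% to 35.4% of all probe sets were called higher and 21.0% to 53.5% lower. Of 13 lymphocyte markers 5 were higher (Cd8a, Cd3d, Cd4, Ms4a1 and Klrb1c) and 0 lower, with mean levels of 6.03 to 6.26 log2 units across hydrogen arrays and 5.82 to 6.04 across control arrays. Of 9 platelet markers 1 was higher (Treml1) and 4 were lower (Ppbp, Clec1b, Gp1bb and Pf4), with mean levels of 6.08 to 6.29 in hydrogen lungs and 6.30 to 6.64 in control lungs. Ppbp, a platelet chemokine, fell by 1.11 (limma adjusted p = 0.00105). Of 10 red cell markers 3 were higher (Rhd, Klf1 and Epb42) and 2 lower (Bpgm and Slc4a1), and Hba-a1, the alpha globin gene, did not pass (0.02, adjusted p = 0.813). Hba-a1 read 13.1 log2 units in both groups, near the 13.2 of the brightest probe set. The brightest probe set of Hbb-b2, a beta globin gene, did not pass (0.06, limma adjusted p = 0.431). Its 2 dimmer probe sets were higher in hydrogen lungs, by 1.55 (adjusted p = 0.00031) and 0.23 (adjusted p = 0.0478). Of 11 monocyte markers 3 were higher (Cx3cr1, Treml4 and Plac8) and 2 lower (F13a1 and Cd14), with Cx3cr1 at 0.52 and F13a1 at -0.90. The calls of Ms4a1, Klrb1c, Clec1b, Slc4a1 and Plac8 were lost without 1 or another array, with limma adjusted p up to 0.162. After renewed quantile normalisation Bpgm (-0.09, adjusted p = 0.383), Pf4 (adjusted p = 0.107), Clec1b (adjusted p = 0.116), Epb42 (adjusted p = 0.0719) and Cd14 (adjusted p = 0.0522) did not pass. A dimmer probe set of Slc4a1 was higher in hydrogen lungs, by 0.29. Of 13 lung tissue markers 1 was higher (Abca3) and 4 lower (Foxj1, by 0.58, Hopx, Pdpn and Ager), each by its brightest probe set. Further probe sets of Abca3 went both ways, and those of Hopx and Ager did not pass. Sftpc, the surfactant protein gene that identifies lung, did not pass (0.02, limma adjusted p = 0.765). It read 13.17 log2 units in hydrogen and 13.15 in control lungs, near the 13.2 of the brightest probe set, so it had little room to differ. Of 11 cardiac muscle markers 11 were lower in hydrogen lungs, with a median of -1.91.

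Across all probe sets, arrays of the same group correlated at 0.996 to 0.997 and arrays of different groups at 0.980 to 0.988. The median log2 value was 4.84 to 4.85 in hydrogen arrays and 4.75 to 4.76 in control arrays. Of 18 probe sets for the bacterial and phage control RNAs, 13 were lower in hydrogen arrays and 0 higher, with a median difference of -0.40. The labels name no batch, so a batch of arrays and the groups cannot be told apart. Called probe sets numbered 10956 higher and 10257 lower, a share of 51.6% higher, which was 30.4% when each array was centred on its own median.

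Apart from the neutrophil genes of the opening, which were left out of the ranking, the genes whose values across the 6 arrays were most like those of S100a8 were Miat, Igf2bp1, Epha10, Igsf23 and H2-Ob, with Pearson r of 0.841 to 0.894. For Ngp they were Cass4, Loxl1, Arrdc4, Vnn1 and Eln, with r of 0.780 to 0.898. These are the top 5 of 1722 genes that varied enough across the arrays to be ranked, an SD of at least 0.3, and are given as a description over 6 arrays that share the group difference. The lists shared no gene.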

How the data were processed

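Lung RNA from 3 hydrogen and 3 control samples was measured on Affymetrix MG-430 PM arrays. The deposited table holds log2 expression values, 1 per probe set and array, made by the authors with RMA in Affymetrix Expression Console, per the submitters' processing notes. The sources used here give neither the software version nor whether all 6 arrays were normalised together. RMA equalises the arrays' distributions, and the deposited arrays still differ in median and spread, which can move dim and bright probe sets in opposite ways. The scanner intensities were not used, so no probe set was called above or below background.

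Of 45141 probe sets, 104 control probe sets were set aside. Symbols came from the platform annotation: 28898 probe sets have 1 symbol, 551 several and 15588 none. Hydrogen minus control was fitted with limma 3.58.1 (lmFit and eBayes) in R 4.3.3 over the other 45037, with Benjamini-Hochberg adjustment over all of them and a threshold of 0.05. No filter and no covariate was used. Genes of the context lists were read from the probe set with the highest mean signal. The named genes are all members, from each neutrophil list chiefly those past the threshold with the largest changes, from each other list the largest changes past it and the brightest, and for likeness the 5 highest correlations. A few were named after their values were seen. The members and lists were chosen with earlier results of these data known. Alternatives were other scalings, array weights, a trended and robust prior, filters on dim or shared probe sets, 1 value per gene, a replicate block and leaving out each array. On simulated arrays the fit called 61% of 100 probe sets changed by 0.5 and 94% of 100 changed by 1, with 4 of 44837 unchanged ones called. No other probe sets were changed there, and the noise was independent with no shift by brightness. In the real arrays 24.3% of probe sets were called higher and 22.8% lower, so the simulated shares do not carry over to them. The same replicate numbers occur in both groups, but over all probe sets same-numbered arrays did not deviate together (r of 0.0784, 0.0287 and -0.109), so no pairing was used. For S100a8, however, replicates 1, 2 and 3 deviated from their group mean by -0.03, 0.31 and -0.27 in hydrogen lungs. In control lungs they deviated by 0.15, 0.31 and -0.45. S100a9 was similar, with -0.05, 0.33 and -0.29 in hydrogen lungs and 0.19, 0.18 and -0.36 in control lungs. Whether these 2 genes passed depended on the pairing. Promoter windows were read from RefSeq, with no genome used. The small number of arrays limits precision.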

Additional observations from a re-analysis of the deposited data

How the results depend on the processing

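The main counts were 2 of 7 neutrophil genes higher and 10956 higher and 10257 lower over all probe sets. Centring on the array median gave 6377 higher over all, a precursor median of 0.10, 4 other mature genes lower and 5 signals higher. Renewed quantile normalisation gave 5 neutrophil genes higher, a precursor median of 0.074, 2 other mature and 1 other granule gene lower. Cyclic loess gave 5, a precursor median of 0.061, and again 2 and 1 lower. Array weights gave 3 other mature genes lower. Leaving out dim probe sets gave 1 neutrophil gene higher, 3663 higher over all, 0 other mature genes lower and 3 other granule genes higher, with Mpo and other dim genes then not tested. With 1 probe set per gene, 4454 genes were higher and 4516 lower, and with the mean of a gene's probe sets 4803 and 4135, each with 2 other mature genes lower. With the replicate number as a block, 4 neutrophil genes were higher, with 9986 probe sets higher over all, and 2 other mature genes were lower. Those 4 included S100a8 (limma adjusted p = 0.00544) and S100a9 (adjusted p = 0.0117). Cxcr2 (adjusted p = 0.0223) and Hdc (adjusted p = 0.0191) also passed with the block. The calls of Ncf4 (adjusted p = 0.0595), Csf2 (adjusted p = 0.0732) and Cxcl5 (adjusted p = 0.0537) were lost. Leaving out 1 array at a time gave 2 to 4 neutrophil genes higher, 7985 to 10097 higher and 7938 to 9608 lower over all, a mature median of 0.24 to 0.56 and a precursor median of 0.16 to 0.24. It gave 5 to 7 higher and 1 to 2 lower in each of the other mature and other granule lists, and 5 to 7 higher and 2 to 4 lower among signals.

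Signs turned for genes near 0. Ngp read -0.03 centred, -0.012 by quantile and -0.049 by loess, and ranged over -0.0033 to 0.18 on leaving out 1 array, with -0.0033 without hydrogen replicate 1. Camp read -0.020 by quantile and -0.037 by loess. Mmp8 read -0.01 by quantile and -0.0097 by loess, and Lcn2 0.069 and 0.055. Csf3 read -0.087 centred, -0.12 by quantile and -0.13 by loess, and ranged over -0.013 to 0.032 on leaving out 1 array, below 0 without hydrogen replicate 1, control replicate 2 or control replicate 3. Except where a smaller set was tested, the cause was not tested. With 3 arrays a group and no scanner background, the data limit what can be said of the dim genes Mpo and Camp. The same holds for Ngp, whose mean of 4.88 lay just above the 4.80 of the median probe set.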

Other observations

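Markers of alveolar macrophages, the resident phagocytes that share the airspace with recruited neutrophils, gave 5 lower and 0 higher of 12 measured in hydrogen lungs, with a median log2 difference of -0.23. Over all genes 25.9% were lower, and in the 3 brightest of 10 equal classes of all probe sets, which show lower calls most often, 40.9% to 53.5% were lower with medians of -0.23 to -0.13, so the count is close to that of bright probe sets in general. The lower ones were Ctsk (fell by 0.78), Car4 (fell by 0.57), Plet1, Mrc1 and Pparg, of which Car4 is also a gene of capillary endothelium. A further probe set of Plet1 was higher, by 0.64 (limma adjusted p = 0.000982), and the mean over its probe sets did not pass (-0.09, adjusted p = 0.193). Mrc1 did not pass after renewed quantile normalisation (-0.27, adjusted p = 0.0935) or cyclic loess (adjusted p = 0.0663). The call of Pparg was lost on leaving out any of hydrogen replicates 1 and 2 or control replicates 1, 2 and 3 (limma adjusted p up to 0.114). Markers of eosinophils, basophils and mast cells, the other granulocytes, gave 3 higher and 1 lower of 14 measured, and 12 of the 14 lay below the median probe set. The share called higher over all genes was 25.5%.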
